A study of Mus musculus with 9 samples.

Results

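The genes described here encode the nuclear subunits of the 5 oxidative phosphorylation complexes, with the assembly factors whose names share their prefixes. They were taken from the array annotation as every row with a single gene symbol beginning Nduf, Uqcr, Atp5 or Sdha to Sdhd, or beginning Cox with a number from 4 to 8 after it. The rule gave 119 rows for 93 genes, of 19938 genes measured, and each gene was represented by its row with the highest mean. Of the 93 members, 34 belonged to complex I, 4 to complex II, 8 to complex III, 19 to complex IV and 17 to complex V, and 11 were assembly factors of complexes I and II. The rule did not use any comparison between groups. None of the 13 mitochondrially encoded subunits was among the genes tested, and they were not analysed here.

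The study profiled mammary gland epithelial cell preparations from wild-type C3H female mice aged 8 to 9 weeks, to ask how the steps of cell isolation alter RNA levels. In the untrypsinized group, cells were freed from fat tissue with collagenase and taken before any trypsin. The trypsinized group had collagenase and then trypsin, and the mock sorted group had collagenase, trypsin and a mock passage through a FACS cell sorter. All 3 groups share the collagenase step, and each has 3 arrays, which the labels call biological replicates without saying whether animals were pooled, so p-values measure the spread between these preparations.

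Oxidative phosphorylation is the process by which mitochondria make most of the ATP of a resting cell. Complexes I (NADH dehydrogenase) and II (succinate dehydrogenase) pass electrons to ubiquinone, complex III passes them to cytochrome c, and complex IV (cytochrome c oxidase) passes them to oxygen. Complexes I, III and IV pump protons, and complex V (ATP synthase) lets the protons return and makes ATP. Several complex IV subunits exist as a ubiquitous form and a form typical of muscle, lung or testis.

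Total RNA was hybridised to 9 Affymetrix whole-transcript arrays, 1 per preparation, and the values are the deposited intensities on the log2(intensity + 1) scale. The median intensity of an array over all rows was 345 to 408, lowest in untrypsinized array 1. The number of arrays, 3 per group, limits the precision: the 95% confidence interval of a member's log2 change reached, in the median, 0.11 to either side. Intensities of different genes depend on their probes and are not compared. The epithelial label was checked against markers: luminal and basal genes such as Krt8 (log2 13.87 ± 0.03, SD, n = 3, in untrypsinized cells) and Krt5 (12.83 ± 0.05) were bright. Endothelial, pericyte, fibroblast and muscle genes were measured too, with summed intensities given below. Some of them were also bright, such as Dcn of fibroblasts (13.60 ± 0.03) and Eng of endothelium (12.50 ± 0.07). The markers therefore do not show that the preparations were epithelial alone. Lymphocyte markers were high in trypsinized array 1 (median log2 10.71) and mock sorted array 1 (10.52), against 9.02 to 9.25 in the other trypsinized and mock sorted arrays and 8.28 to 8.38 in the untrypsinized arrays. Throughout, a gene is said to have risen or fallen where the moderated test of limma gave a Benjamini-Hochberg adjusted p at or under 0.05 over all genes tested, with no minimum fold.

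After trypsin, part of each complex was modestly lower. Relative to untrypsinized cells, 25 of 93 members fell, 3 rose and 65 did not pass the test, with a median log2 change of -0.08. Of all genes tested, 11.5% fell and 13.9% rose, and their median was 0.04. The members' 26.9% falling was thus above the background share in this fit, and their 3.23% rising below it; the first of these depended on single arrays, as given below. Among genes with a mean log2 intensity of at least 10, which held 72 members, 15.7% of all genes and 27.8% of members fell. The medians there were -0.01 for all genes and -0.08 for members. Every change was small. The members' log2 changes ran from -0.49 to 0.26, and none reached 1.5-fold (0.58 on the log2 scale), the minimum of the submitters' design, which 0.933% of all genes passed downward and 0.532% upward together with the adjusted p.

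By complex, trypsinized cells had lower levels of 9 of 34 complex I genes, 2 of 4 in complex II, 2 of 8 in complex III, 4 of 19 in complex IV, 4 of 17 in complex V and 4 of 11 assembly factors. The risers were Ndufa7 of complex I, Cox6a2 of complex IV and the assembly factor Ndufaf6. The whole isolation, mock sorted against untrypsinized, gave 39 members lower and 6 higher, against 18.0% and 21.0% of all genes. The members' median was -0.10, and that of all genes 0.05. Among genes with a mean log2 intensity of at least 10, the background was closer: 26.3% of all genes and 43.1% of members fell. The medians there were -0.02 for all genes and -0.11 for members. At 1.5-fold 3.40% of all genes fell and 1.08% rose, while the members' changes ran from -0.51 to 0.29. Of the 25 genes that fell after trypsin, 23 (92.0% of them and 59.0% of the 39) were among the 39, which share the untrypsinized arrays; Sdhaf2 and Sdhd were not.

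**Figure D1:**
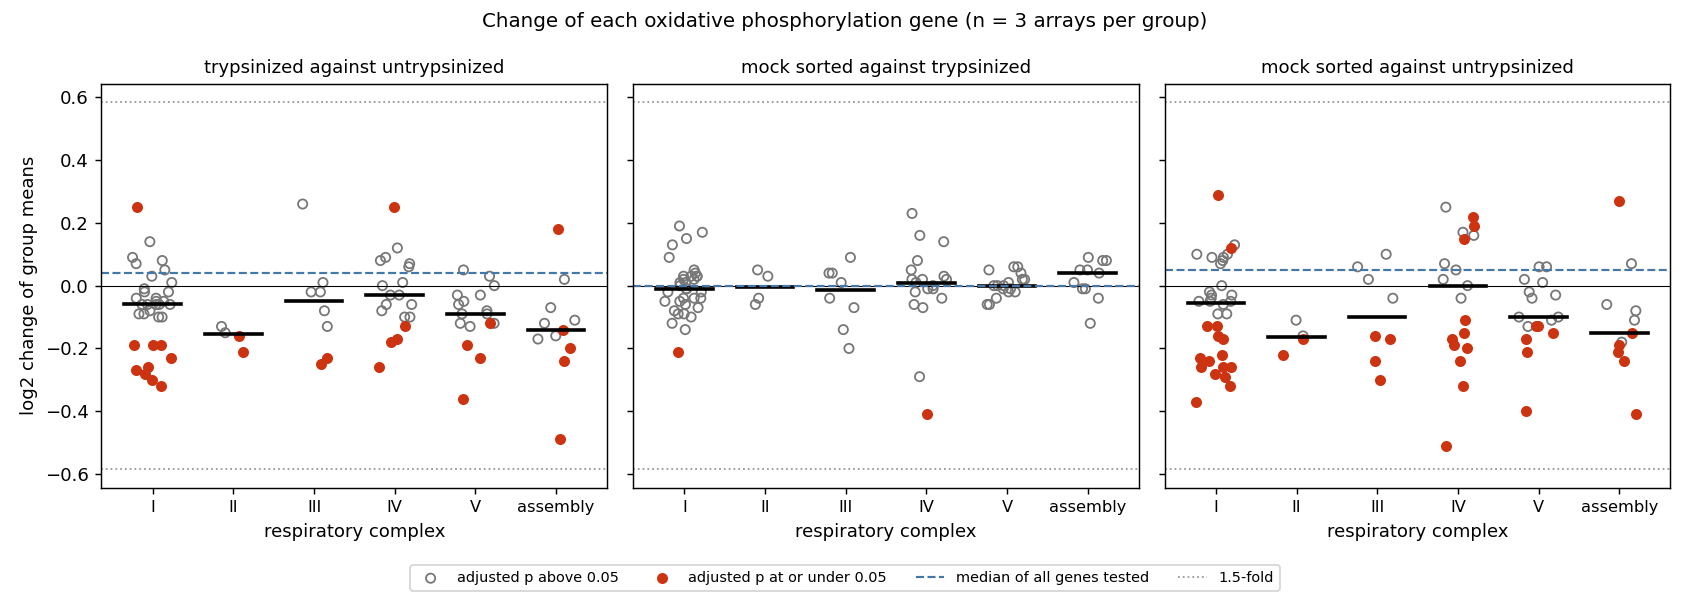
Log2 change of each member (y axis) by respiratory complex (x axis) in the 3 comparisons, with called members filled, the group median as a black bar, the median of all genes tested as a dashed line and 1.5-fold as dotted lines. Filled points lie mostly below 0 in the outer panels (25 lower and 3 higher on the left, 39 and 6 on the right), 2 are filled in the middle panel, and none reaches a dotted line.

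The shift also shows array by array. The members' median deviation from their own means over the 9 arrays was 0.08, 0.05 and 0.03 in untrypsinized arrays 1, 2 and 3. It was -0.04, -0.01 and -0.03 in the trypsinized arrays and -0.04, -0.03 and -0.04 in the mock sorted arrays. On this measure the untrypsinized arrays lay above the other 6 without overlap. For all genes tested untrypsinized array 1 was the lowest, at -0.07, and the other 8 arrays lay between -0.01 and 0.02. The plain median of the members' log2 intensities did overlap between groups. It was 11.42 to 11.52 in untrypsinized, 11.33 to 11.49 in trypsinized and 11.41 to 11.46 in mock sorted arrays. Between arrays of a group its SD was 0.06, and 0.08 after subtracting the median of all genes.

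**Figure D2:**
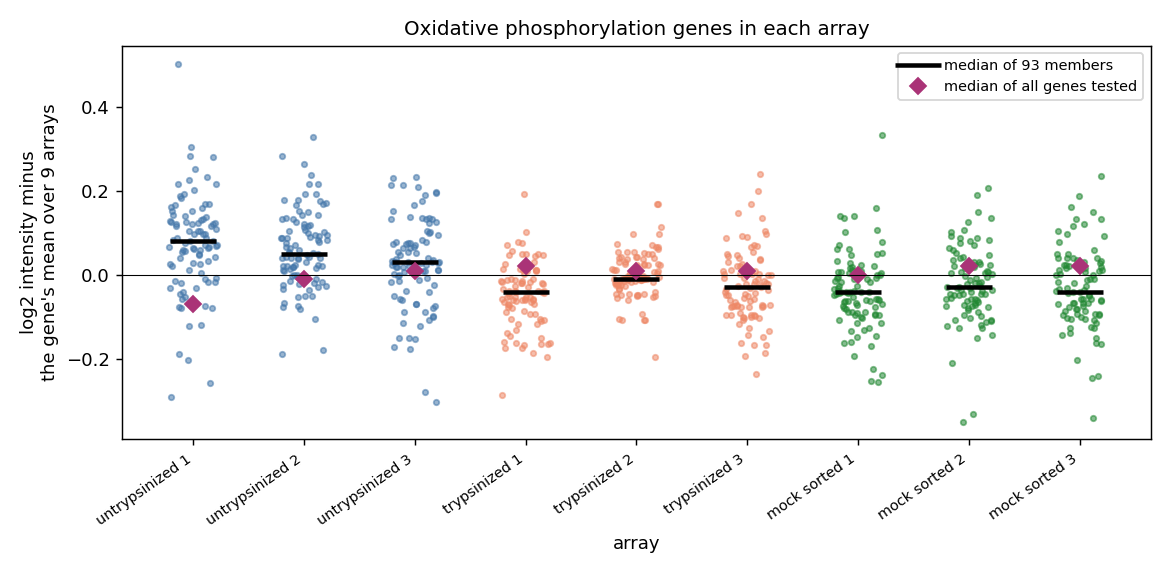
Each point is a member's log2 intensity in an array minus that gene's mean over the 9 arrays (y axis), by array (x axis); bars are the members' medians and diamonds the medians of all genes tested. The bars are at 0.08 to 0.03 in untrypsinized cells and at -0.01 to -0.04 in the other 6 arrays.

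Complex I oxidises NADH at a hydrophilic arm built from core subunits, of which 6 were members here. Ndufs3, a core subunit of that arm, had log2 intensities of 11.50, 11.47 and 11.47 in untrypsinized cells, 11.25, 11.35 and 11.26 after trypsin, and 11.25, 11.21 and 11.28 after mock sorting. The untrypsinized arrays were above all other 6. The trypsin change was -0.19 (SE 0.04, limma adjusted p = 0.0109), and the change over both steps -0.23 (SE 0.04, adjusted p = 0.00267). Ndufs1, the largest core subunit and a carrier of iron-sulfur clusters, had 10.61, 10.60 and 10.50, then 10.37, 10.46 and 10.32, then 10.36, 10.32 and 10.26, and fell by 12.3% after trypsin (adjusted p = 0.0289). Ndufv1, which binds NADH, did not pass the trypsin test (-0.06, adjusted p = 0.334) and was lower over both steps (-0.13, adjusted p = 0.0361). Of the 6 core genes, 2 fell after trypsin and 3 over both steps, and none rose in either.

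Among 28 accessory subunits of complex I, which surround the core, 7 fell and 1 rose after trypsin, and 11 fell and 2 rose over both steps. Ndufc2, a membrane arm subunit, had 12.81, 12.81 and 12.73 in untrypsinized cells and 12.43, 12.57 and 12.52 after trypsin. Mock sorted arrays were at 12.46, 12.53 and 12.49, within the trypsinized range. Its trypsin change was -0.28 (SE 0.05, adjusted p = 0.00497), so that its intensity fell by 17.7%. Ndufb6, also of the membrane arm, went from 12.31, 12.27 and 12.29 to 11.91, 12.08 and 11.91, and stood at 11.93, 12.04 and 11.95 after mock sorting. It fell by 20.1% at the trypsin step (adjusted p = 0.00572), the most among the complex I genes that fell. Ndufa1, a small membrane arm subunit encoded on the X chromosome, had 9.70, 9.59 and 9.61, then 9.27, 9.49 and 9.33, then 9.18, 9.34 and 9.27. Its change over both steps was -0.37 (SE 0.07, adjusted p = 0.00329), with no overlap between untrypsinized and mock sorted arrays.

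Ndufa7 went the other way. This accessory subunit had 11.52, 11.70 and 11.42 in untrypsinized cells, 11.78, 11.72 and 11.87 after trypsin, and 11.83, 11.85 and 11.82 after mock sorting. The untrypsinized arrays lay below the others, array 2 by only a small margin. The trypsin change was 0.25 (SE 0.07, adjusted p = 0.0376), and the change over both steps 0.29 (SE 0.07, adjusted p = 0.0143). Ndufa3 also rose over both steps, by 0.12 (SE 0.04, adjusted p = 0.0495), close to the threshold; it was named after its value was seen.

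Complex II, also an enzyme of the tricarboxylic acid cycle, had all 4 subunits below 0 in both comparisons with untrypsinized cells. Sdhb, the iron-sulfur subunit, had 11.39, 11.32 and 11.35, then 11.19, 11.22 and 11.16, then 11.13, 11.14 and 11.12. Each group lay wholly below the one before. The trypsin change was -0.16 (SE 0.04, adjusted p = 0.0144), and over both steps the gene fell by 14.2% (adjusted p = 0.00198). Sdha, the flavoprotein, had 12.21, 12.15 and 12.19, then 12.02, 12.11 and 12.04, then 12.04, 12.04 and 11.97. It missed the threshold after trypsin (-0.13, adjusted p = 0.0528) and passed it over both steps (-0.17, adjusted p = 0.0130). Sdhd, a membrane anchor, was lower after trypsin (-0.21, adjusted p = 0.0498), and not over both steps (-0.16, adjusted p = 0.0918). Sdhc, the other anchor, passed neither test (-0.15 and -0.11).

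In complex III the catalytic Rieske iron-sulfur protein moved and the core proteins passed no test. Uqcrfs1, which encodes the Rieske protein, had 10.59, 10.58 and 10.66, then 10.37, 10.42 and 10.33, then 10.26, 10.37 and 10.29. The untrypsinized arrays lay above all others, and the trypsinized and mock sorted arrays overlapped. It fell by 14.8% after trypsin (-0.23, SE 0.04, adjusted p = 0.00851) and by 18.8% over both steps (-0.30, SE 0.04, adjusted p = 0.00127). Uqcrc1, a core protein, had changes of -0.02 and 0.02, with a 95% interval of -0.08 to 0.12 for both steps. Of the small accessory subunits, Uqcrq changed by -0.25 after trypsin (adjusted p = 0.0286), and Uqcrb (-0.17, adjusted p = 0.0137) and Uqcrh (-0.16, adjusted p = 0.0180) were lower over both steps only. Uqcr11 gave no clear value: its brighter row changed by 0.06 over both steps (adjusted p = 0.761), and its second row by -0.40 (adjusted p = 0.00223 among all such rows).

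Complex IV had 4 genes lower and 1 higher after trypsin, and 8 lower and 3 higher over both steps. Cox4i1, the ubiquitous form of subunit 4, had 11.90, 11.84 and 11.77, then 11.66, 11.71 and 11.64, then 11.63, 11.66 and 11.65. Untrypsinized cells were above the rest, and the trypsin change was -0.17 (SE 0.04, adjusted p = 0.0230). Cox5a changed by -0.18 after trypsin (adjusted p = 0.0482), Cox7a2 by -0.13 (adjusted p = 0.0294), and Cox6b1 was lower over both steps only (-0.15, adjusted p = 0.0102). Ndufa4, once counted with complex I and now known as a complex IV subunit, had 11.38, 11.33 and 11.25, then 10.99, 11.10 and 11.10, then 10.96, 11.17 and 11.11. Its trypsin change was -0.26 (SE 0.06, adjusted p = 0.0227).

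Of the other ubiquitous subunits, Cox6c was lower over both steps (-0.11, SE 0.04, adjusted p = 0.0407), and Cox5b did not pass a test (-0.03 and 0.00). Cox6a1 changed by 0.00 after trypsin and 0.05 over both steps (95% interval -0.05 to 0.14), and Cox8a by -0.06 and -0.04. Cox7b, with 13.07, 13.03 and 12.96 before trypsin and 13.19, 13.17 and 13.14 after mock sorting, was higher over both steps (0.15, SE 0.04, adjusted p = 0.0238). Setting every array to a common median undid the direction of 2 calls: Cox7b then changed by 0.00, and Ndufa3 of complex I by -0.03. No other called member changed its sign under an alternative tried or with an array left out.

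Complex V makes ATP in its F1 head, which a peripheral stalk holds against the rotating ring of c subunits. Atp5mpl, a small membrane subunit, had 10.99, 10.99 and 10.90 in untrypsinized cells, 10.53, 10.66 and 10.61 after trypsin and 10.48, 10.61 and 10.58 after mock sorting. The groups after trypsin overlapped each other and lay wholly below the first. Its trypsin change was -0.36 (SE 0.05, adjusted p = 0.00302), and the change over both steps -0.40 (SE 0.05, adjusted p = 0.000698). Atp5pb (-0.19, adjusted p = 0.0375) and Atp5j (-0.12, adjusted p = 0.0382) of the stalk also fell after trypsin, and Atp5j2, a membrane subunit, fell over both steps only (-0.15, adjusted p = 0.0199).

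In the F1 head 1 of 5 genes fell after trypsin and 2 of 5 over both steps. Atp5c1, the gamma subunit of the central stalk, went from 12.69, 12.68 and 12.73 to 12.46, 12.53 and 12.42, and stood at 12.50, 12.60 and 12.47 after mock sorting. The untrypsinized arrays lay above all others, and the trypsin change was -0.23 (SE 0.05, adjusted p = 0.0107). Atp5a1, the alpha subunit, missed the threshold after trypsin (-0.12, adjusted p = 0.0571) and was lower over both steps (-0.13, adjusted p = 0.0337).

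The other F1 genes and the c ring passed no test. Atp5b, the catalytic beta subunit, had 13.52, 13.44 and 13.48, then 13.47, 13.45 and 13.44, then 13.46, 13.43 and 13.46. The groups overlapped, and the change over both steps was -0.03, with a 95% interval of -0.11 to 0.05. Atp5d, the brightest member by mean intensity, changed by 0.00 and 0.02, and Atp5e by -0.08 and -0.10. The c subunit is encoded by 3 genes for the same mature protein, and none passed a test: over both steps Atp5g1 changed by 0.06 (95% interval -0.04 to 0.15), Atp5g2 by 0.06 (-0.02 to 0.13) and Atp5g3 by -0.04 (-0.12 to 0.04).

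Assembly factors help build the complexes and are not part of the finished enzymes. Of 11, 4 fell and 1 rose after trypsin, and 5 fell and 1 rose over both steps. Sdhaf4, which helps mature the flavoprotein of complex II, had 8.53, 8.29 and 8.16, then 7.74, 7.98 and 7.79, then 7.77, 8.05 and 7.93. Its trypsin change of -0.49 (SE 0.11, adjusted p = 0.0156) was the largest of any member at that step, but its second row changed by 0.02 (adjusted p = 0.912). The factors Ndufaf2 (-0.21, adjusted p = 0.0212) and Ndufaf3 (-0.15, adjusted p = 0.0179) for complex I were lower over both steps. Ndufaf6, another factor for complex I, rose: 8.40, 8.40 and 8.52 became 8.62, 8.64 and 8.59 after trypsin and 8.69, 8.69 and 8.75 after mock sorting. Each group lay above the one before, with a change over both steps of 0.27 (SE 0.04, adjusted p = 0.00176).

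**Figure D3:**
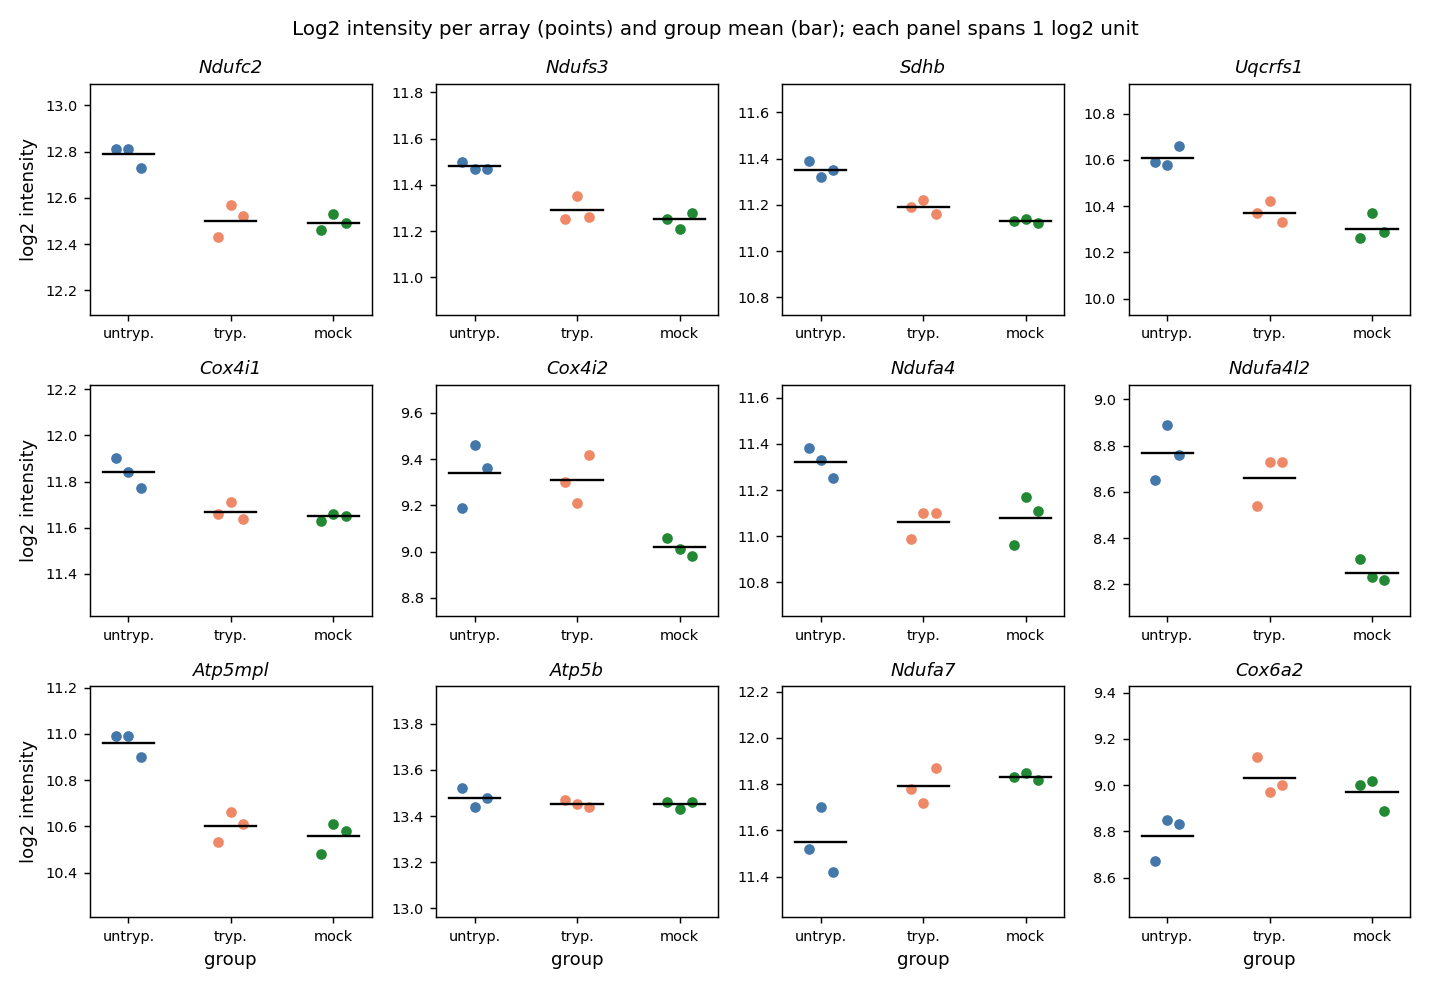
Log2 intensity (y axis) of 12 members in each array (points) and group mean (bars) by group (x axis); every panel spans the same height. Ndufc2, Ndufs3, Sdhb, Uqcrfs1, Cox4i1, Ndufa4 and Atp5mpl drop between untrypsinized and trypsinized cells, Ndufa4l2 and Cox4i2 are lowest in mock sorted cells, Ndufa7 and Cox6a2 rise, and Atp5b is level.

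The mock sort itself moved few of these genes. Against trypsinized cells 2 members fell and 0 rose, where 4.20% of all genes fell and 0.466% rose; at an unadjusted p of 0.05, limma gave 6 lower and 3 higher. The median was 0.00 for members and for all genes. At 1.5-fold 1.17% of all genes fell and 0.0251% rose, and the members' changes ran from -0.41 to 0.23. The 95% interval of the change lay within 0.3 of 0 for 83 of the 91 members that were not called, so for these a larger change at this step was outside the interval. This comparison shares the trypsinized arrays with the first, and the contrast between the 2 steps was tested directly: 0 members differed, with the lowest adjusted p at 0.161 for Atp5mpl, where 0.125% of all genes differed. At an unadjusted p of 0.05, 16 members and 16.4% of all genes did.

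Ndufa4l2 and Ndufb7 were the 2 that fell. Ndufa4l2 encodes a paralog of Ndufa4 that is induced by hypoxia. Its log2 intensities were 8.65, 8.89 and 8.76 in untrypsinized cells, 8.54, 8.73 and 8.73 after trypsin, and 8.31, 8.23 and 8.22 after mock sorting. The first groups overlapped, and the mock sorted arrays lay below both. Its change at the mock sort was -0.41 (SE 0.07, adjusted p = 0.0178), and over both steps -0.51 (SE 0.07, adjusted p = 0.00120), so that its intensity fell by 29.9%. Ndufb7, an accessory subunit of complex I named after its value was seen, had 10.52, 10.53 and 10.58 after trypsin and 10.36, 10.40 and 10.23 after mock sorting (-0.21, SE 0.05, adjusted p = 0.0471). Arrays with the same replicate number in these groups deviated together from their group means (correlations 0.53, 0.29 and 0.29). With the replicate number as a block in the fit of these 6 arrays, 0 members were called, and Ndufa4l2 had an adjusted p of 0.0705. Without trypsinized array 2 or 3, or without mock sorted array 2 or 3, Ndufa4l2 had an adjusted p between 0.0734 and 0.0779. Ndufb7 lost its call without any 1 of the 9 arrays and under each of the 3 scalings tried, with adjusted p-values up to 0.16.

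Paralogous forms of complex IV subunits did not all move together. Cox4i2, the form of subunit 4 linked to lung and to low oxygen, had 9.19, 9.46 and 9.36, then 9.30, 9.21 and 9.42, then 9.06, 9.01 and 8.98. Its levels before and after trypsin overlapped and those after mock sorting were below both, unlike Cox4i1, whose values after trypsin and after mock sorting overlapped. Its change was -0.03 at trypsin (adjusted p = 0.815), -0.29 at the mock sort (adjusted p = 0.0745, not passing the test) and -0.32 over both (SE 0.08, adjusted p = 0.0117). Cox6a2, the heart and skeletal muscle form of subunit 6a, rose after trypsin from 8.67, 8.85 and 8.83 to 9.12, 8.97 and 9.00 (0.25, SE 0.06, adjusted p = 0.0254), and Cox6a1 did not pass a test. Cox6b2, the testis form of subunit 6b, rose over both steps (0.22, SE 0.07, adjusted p = 0.0329), where Cox6b1 fell. The differences between paralogs were not tested.

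The muscle form Cox7a1 changed by 0.02 over both steps (95% interval -0.09 to 0.13), where Cox7a2 fell, and the supercomplex factor Cox7a2l by 0.07 (-0.09 to 0.23). Cox8b and Cox8c changed by 0.16 and 0.25, with adjusted p-values of 0.0602 and 0.0600. Cox7b2, at a mean below 6.55, the mean of 1027 olfactory receptor genes that were taken as a level of silent genes, changed by 0.17 (adjusted p = 0.193). It was the only member under that level. Of the 7 tissue forms together, 1 fell and 2 rose over both steps (14.3% and 28.6%, against 18.0% and 21.0% of all genes). The 2 that rose, Cox6a2 and Cox6b2, lost that call with quantile normalization over all rows and with a common median.

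Markers of other cell types moved with the same comparisons. Of all genes tested, 11.5% fell and 13.9% rose after trypsin, and 4.20% fell and 0.466% rose at the mock sort. Endothelial markers fell in 16 of 17 genes after trypsin and in 17 of 17 at the mock sort. Their summed intensity was 44500 to 50900 in untrypsinized, 34700 to 35100 in trypsinized and 16400 to 19400 in mock sorted arrays. Pericyte and vascular smooth muscle markers fell in 9 of 11 genes after trypsin and 8 of 11 at the mock sort, with sums of 22400 to 24400, 18100 to 18700 and 11800 to 12700. Kcnj8, a pericyte channel, changed by -0.61 and then by -1.02 (adjusted p = 0.00147 and 0.000223). Ndufa4l2 fell at the same step as these markers, and the part of pericytes or endothelium in it was not tested. In bulk samples fewer cells of a type and less RNA per cell cannot be told apart.

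Skeletal muscle markers fell in 9 of 18 genes after trypsin, with sums of 10100 to 12600 in untrypsinized and 9420 to 10200 in trypsinized arrays, and in 2 of 18 at the mock sort, to sums of 9160 to 9510. Ckm, the muscle creatine kinase, changed by -1.07 and -0.99, and its fall after trypsin was the largest of the 18. Other muscle genes such as Acta1 (0.04) and Tnnt3 (0.18) did not pass the test after trypsin. Adipocyte markers fell in 6 and rose in 2 of 16 after trypsin (sums 25200 to 28300 and 21700 to 22500). These were 37.5% and 12.5% of them, against 11.5% and 13.9% of all genes, so the share that rose was near the background. The 2 that rose were Cidea (0.33, limma adjusted p = 0.00981) and Ucp1 (0.20, adjusted p = 0.0115). Adipoq (-0.05) and Plin1 (0.08) did not pass the test. Fibroblast markers fell in 5 of 11 (sums 34700 to 38800 and 30800 to 34200). Luminal markers rose in 5 of 15 and fell in none, at sums of 104000 to 107000 and then 110000 to 112000, and basal markers fell in 4 and rose in 1 of 12. No marker of these lists had a mean below 6.55, the mean of the olfactory receptor genes. The spread of those genes is not given here, so weak markers may still lie near the level of silent genes. The part of muscle, fat or stromal RNA in the fall of the oxidative phosphorylation genes after trypsin was not tested.

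Other mitochondrial genes were counted the same way, against 11.5% of all genes lower and 13.9% higher after trypsin. Of respiratory chain partners outside the rule, 2 of 13 fell and 1 rose after trypsin. Slc25a4, the adenine nucleotide carrier typical of heart and muscle, changed by -0.36 (adjusted p = 0.00183), and the outer membrane channel gene Vdac3 by -0.24 (adjusted p = 0.00753). Cyc1 and Cycs, which encode cytochrome c1 and cytochrome c, did not pass the test (0.04 and 0.03). Of 28 further assembly factors, 9 fell and 1 rose: Tmem126b, for complex I, changed by -0.35 (adjusted p = 0.00487), and Ttc19, for complex III, by 0.28 (adjusted p = 0.00912).

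Enzymes of the tricarboxylic acid cycle and pyruvate dehydrogenase fell in 7 of 17 genes after trypsin, among them Pdha1 (-0.20, adjusted p = 0.00625), and none rose. Beta-oxidation enzymes fell in 5 of 13, with Acadm, a medium-chain dehydrogenase, at -0.25 (adjusted p = 0.00430). Glycolytic genes fell in 4 of 17 after trypsin and 3 of 17 at the mock sort. Slc16a3, a lactate exporter, changed by -0.32 and then -0.39 (adjusted p = 0.000832 and 0.000408). Mitochondrial ribosomal proteins fell in 12 and rose in 2 of 77, and cytosolic ribosomal proteins fell in 6 and rose in 4 of 60. At the mock sort limma called 3 genes of these lists, all of them glycolytic and lower, where 4.20% of all genes fell and 0.466% rose.

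Of 12 regulators of mitochondrial genes, 3 fell and 2 rose after trypsin. Tfam, which packages and transcribes mitochondrial DNA, changed by -0.36 (adjusted p = 0.0105), and Pprc1, a coactivator of the PGC-1 family, by 0.30 (adjusted p = 0.00115). Gabpa, an ETS-family factor that binds promoters of respiratory genes, was lower over both steps (-0.21, adjusted p = 0.00177).

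Since factors such as Gabpa act at promoters of respiratory genes, the members' promoters were read from RefSeq windows on GRCm38.p6. Each window has 250 bases before and 50 after a gene's start, and 77 of the 93 members have one. Motifs of 3 kinds were searched on both strands: GCGCANGCG for NRF1, nuclear respiratory factor 1, AAGATGGCG for YY1 and CCGGAAGT for ETS factors. The NRF1 letters were in 24 of 82 member windows (29.3%), against 9.25% of 19177 windows of the genes tested and 6.25% of all 32851 windows. For YY1 the shares were 8.54%, 1.93% and 1.40%, and for ETS 6.10%, 5.41% and 3.89%. Among the members that fell the NRF1 letters were not more frequent: over both steps, 6 of 31 windows of members called lower held them (19.4%), 18 of 46 of those not called (39.1%) and 0 of 5 of those called higher. These shares are a description, and a match is not a binding site.

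The 170 bases before the start are shown for 4 members, to set 2 that fell with NRF1 letters beside 1 that fell without any and 1 that has them and did not change beyond its interval. Capitals mark the NRF1 letters on either strand, and each sequence reads 5′ to 3′ toward the gene's start.
Ndufa8 (chr2:36049339-36049508, minus strand): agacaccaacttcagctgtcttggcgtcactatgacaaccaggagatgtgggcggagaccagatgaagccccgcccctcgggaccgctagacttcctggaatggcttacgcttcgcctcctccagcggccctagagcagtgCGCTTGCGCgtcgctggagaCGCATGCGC
Sdha (chr13:74350241-74350410, minus strand): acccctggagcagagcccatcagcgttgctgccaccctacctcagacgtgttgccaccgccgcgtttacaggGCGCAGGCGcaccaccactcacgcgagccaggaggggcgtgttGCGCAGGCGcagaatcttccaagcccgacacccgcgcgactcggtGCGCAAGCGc
Uqcrfs1 (chr13:30545317-30545486, minus strand): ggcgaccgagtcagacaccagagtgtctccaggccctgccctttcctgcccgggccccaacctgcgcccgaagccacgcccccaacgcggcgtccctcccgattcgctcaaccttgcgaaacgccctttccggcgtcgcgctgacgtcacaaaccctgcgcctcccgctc
Cox6a1 (chr5:115348959-115349128, minus strand): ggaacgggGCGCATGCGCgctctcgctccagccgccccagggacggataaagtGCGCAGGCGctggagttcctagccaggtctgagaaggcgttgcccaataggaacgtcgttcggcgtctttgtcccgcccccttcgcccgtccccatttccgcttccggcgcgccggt

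The matches begin 29 and 9 bases before the start in Ndufa8, an accessory subunit of complex I, and 98, 55 and 10 bases before it in Sdha. In Cox6a1 they begin 162, 161 and 117 bases before it, the first pair being a palindrome read on both strands. Ndufa8, named after its value was seen, had 11.76, 11.73 and 11.71 in untrypsinized cells and 11.42, 11.54 and 11.46 after trypsin, a change of -0.26 (SE 0.05, adjusted p = 0.00984). The Uqcrfs1 window held none of the 3 motifs, and that gene fell by 18.8% over both steps.

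How many genes fell depended on the scaling between arrays, since the deposited scaling is not stated. Setting each array to a common median over all rows moved the median of all genes from 0.04 to -0.09 after trypsin and from 0.05 to -0.09 over both steps. The split of members then went from 25 lower and 3 higher to 53 and 0 after trypsin, and from 39 and 6 to 63 and 0 over both steps. Over all genes the share lower rose with it, from 11.5% to 28.4% after trypsin and from 18.0% to 34.1% over both steps, and the share higher became 3.74% and 6.18%. Under that scaling and with quantile normalization over all rows, Sdhaf4 after trypsin and Ndufa4l2 over both steps passed 1.5-fold. Relative to the median of all genes, the members' median was lower by -0.11 after trypsin as deposited and at a common median, by -0.04 with quantile normalization over all rows and by -0.07 with quantile normalization over the genes tested. Over both steps these values were -0.15, -0.15, -0.05 and -0.09. A common median subtracts a constant from each array, so it cannot change this difference and does not test it. Both quantile normalizations can change it. Under each of them the members' median still lay below that of all genes, by less than as deposited.

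**Figure D4:**
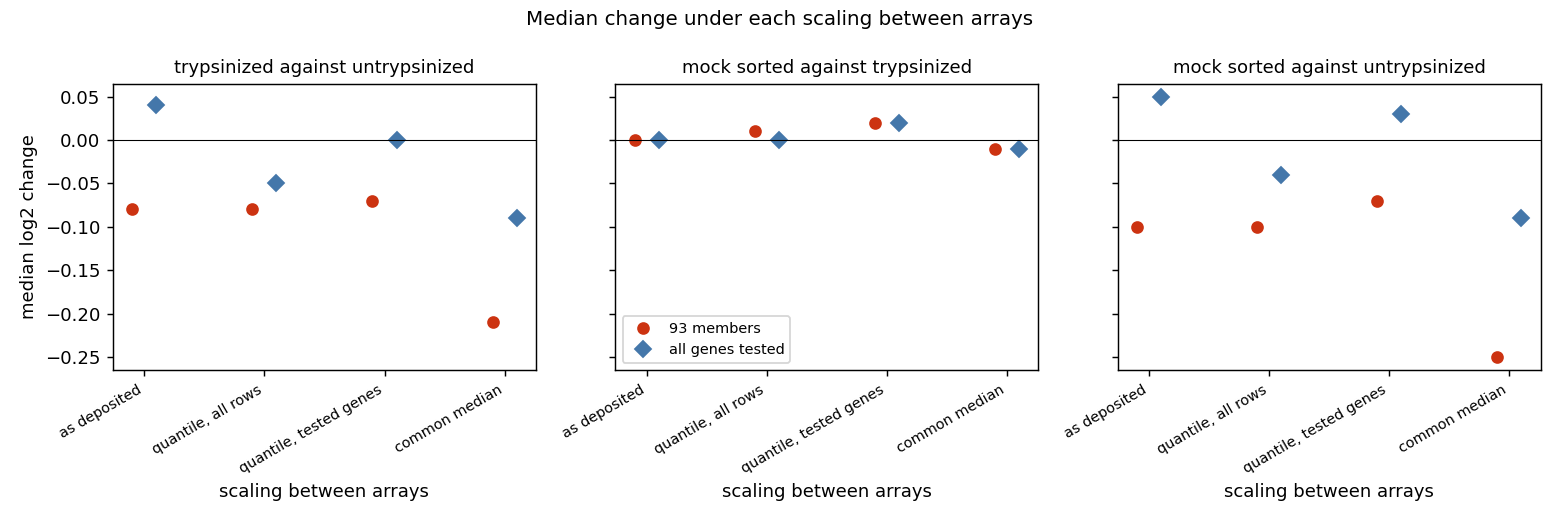
Median log2 change (y axis) of the 93 members (circles) and of all genes tested (diamonds) under 4 scalings between arrays (x axis), for the 3 comparisons. Circles lie below diamonds in the outer panels under every scaling, from -0.07 to -0.25, and the 2 coincide within 0.01 in the middle panel. A common median moves circles and diamonds by the same amount, so it cannot change the distance between them.

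Single arrays also mattered. The 25 members lower after trypsin became 11, 16, 10 and 9 without untrypsinized array 1, untrypsinized array 2, trypsinized array 1 or trypsinized array 3. As shares these were 11.8%, 17.2%, 10.8% and 9.68% of members, against 8.21%, 8.83%, 7.17% and 7.09% of all genes under the same omissions. The excess of falling members over the background after trypsin was therefore much smaller without untrypsinized array 1, trypsinized array 1 or trypsinized array 3. With the replicate number as a block in the 6 arrays compared, 1.08% of members and 3.41% of all genes were lower. That fit also called fewer of all genes. Each group has every replicate number once, so the block cannot change differences of group means. The members' median minus that of all genes was therefore bound to stay at -0.11 and tests nothing here. Untrypsinized numbers were not taken as pairs, so the block cannot show whether the excess was absent. The 39 lower over both steps became 23 without untrypsinized array 1 and 23 without mock sorted array 3 (24.7% of members each time, against 15.2% and 14.5% of all genes). After trypsin, Atp5mpl alone stayed called under every alternative and with each array left out. Over both steps 18 members did: Ndufa1, Ndufa4l2, Ndufa8, Ndufa9, Ndufb2, Ndufb6, Ndufb7, Ndufc2, Ndufs1, Ndufs3, Ndufs6, Sdha, Sdhb, Uqcrfs1, Cox4i1, Cox4i2, Cox7a2 and Atp5mpl. All 18 fell, and of the 48 members not called over both steps, 43 had a 95% interval within 0.3 of 0.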

How the data were processed

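RNA from 9 preparations, 3 per group, was measured on Affymetrix whole-transcript arrays. The values are linear intensity values as deposited by the authors; their background correction, probe summary and scaling were not stated in any source used here, and the submitters' processing notes name limma without a version. The deposited table has 35512 rows, of which 21789 carry 1 symbol and 1621 several in the platform annotation; symbols were checked by gene number for 21698 rows, and 0 changed. The row with the highest mean stood for each of 19938 genes. Values were taken as log2(intensity + 1), with a pseudocount of 1, and 1 linear model of the 9 arrays was fitted with limma 3.58.1 in R 4.3.3 (lmFit and eBayes), with Benjamini-Hochberg adjustment over all genes. The submitters' design compares trypsinized with untrypsinized and mock sorted with trypsinized cells at 1.5-fold; mock sorted against untrypsinized and the contrast of the 2 steps were added here. The fit was tested on simulated data.

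The members, gene lists and alternatives were chosen with earlier results of these data known. Named genes were up to 4 members per complex with the smallest p over both steps, fixed core subunits and all paralogous isoforms. Also named were up to 5 largest rises per comparison, the members of lowest and highest mean, and up to 3 genes per list. Atp5a1, Atp5c1, Atp5e, Cox5b, Cox6c, Ndufa3, Ndufa8, Ndufa11, Ndufab1, Ndufb7, Sdhc, Sdhd, Sdhaf2 and Uqcr11 were named after their values were seen. So were Krt5, Krt8, Dcn, Eng, Cyc1, Cycs, Acta1, Tnnt3, Adipoq, Plin1, Cidea and Ucp1. Same-numbered trypsinized and mock sorted arrays correlated in their deviations from the group means (0.53, 0.29 and 0.29), so these numbers pair the arrays from the values, not the labels; same-numbered untrypsinized arrays did not reach 0.1 in every pair (0.11, 0.04 and -0.04 with trypsinized, 0.32, 0.18 and 0.06 with mock sorted arrays), so those numbers were not taken as pairs. Promoter windows come from RefSeq.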

Additional observations from a re-analysis of the deposited data

How the results depend on the processing

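Counts below are of members, lower unless said otherwise. Trypsinized against untrypsinized (25 lower, 3 higher): an unadjusted p gave 38 and 5, a common median 53 and 0 (members' median -0.21), a variance trend with robust fit 39 and 6, the 6 arrays alone 14 (15.1% of members, 9.03% of all genes), the replicate block in those 6 arrays 1 and 0 (1.08% of members lower, 3.41% of all genes), and subunits without tissue isoforms 1 higher. Leaving out single arrays gave 9 to 26 lower and 0 to 2 higher. At 1.5-fold, 1 member (Sdhaf4) passed with quantile normalization over all rows and with a common median.

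Mock sorted against trypsinized (2 lower, 0 higher): an unadjusted p gave 6 and 3, quantile normalization over the genes tested 1, the trend with robust fit 5 and 1, the 6 arrays alone 1, the replicate block 1 with 9 arrays and 0 with 6, and subunits without tissue isoforms 1; among genes of mean log2 at least 10, 1 was higher. Left-out arrays gave 0 to 2 lower and 0 to 2 higher.

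Mock sorted against untrypsinized (39 lower, 6 higher): an unadjusted p and the trend with robust fit each gave 10 higher, a common median 63 lower and 0 higher (median -0.25), and subunits without tissue isoforms 3 higher. The members' median minus that of all genes became -0.05 with quantile normalization over all rows. At 1.5-fold, 1 member (Ndufa4l2) passed with either of these scalings. Left-out arrays gave 23 to 39 lower and 2 to 6 higher. Cox7b turned to 0.00 with a common median. The causes were not tested.

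Among single named members, 193 values under alternatives lost the call, 57 gained it and 1 reversed. The replicate block of 9 arrays gave 23 members lower after trypsin and 37 over both steps and changed no other count by over 1.5 times, apart from those above; same-numbered untrypsinized arrays did not deviate with the others throughout, so calls lost there are not read as weaker. The block in 6 arrays, the filter at mean log2 10 and the set without tissue isoforms were added after the data were seen. The number of arrays, 3 per group, and the unstated scaling limit the precision.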

Other observations

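Rows that pair a member with another symbol were outside the rule and are given here as values. The row shared by Ndufs5, an accessory subunit of complex I, and its pseudogene had 9.74, 9.52 and 9.50 in untrypsinized cells, 9.34, 9.42 and 9.43 after trypsin, and 9.40, 9.38 and 9.33 after mock sorting. Its change over both steps was -0.22 (SE 0.07, limma adjusted p = 0.0404 over all rows). The row annotated to Ndufs5 alone changed by -0.05 (adjusted p = 0.613). Cox7c, a ubiquitous subunit of complex IV, was on 3 rows shared with Gm12338, with changes over both steps of -0.01, -0.02 and -0.03 and none called. Ndufb4 was on 2 rows shared with Ndufb4b, both at -0.07 over both steps and neither called.

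Second rows of the same gene differed from the brighter one in a few members. The brighter row of Ndufab1, the mitochondrial acyl carrier protein, changed by 0.14 after trypsin (adjusted p = 0.0957), and its second row by -0.17 (adjusted p = 0.0237). For Ndufa11, the second row was lower over both steps (-0.23, adjusted p = 0.0150), where the brighter row was not called (-0.09, adjusted p = 0.126). Over the 26 further rows of 18 members, 9 fell and 1 rose over both steps, where 18.0% and 21.0% of all genes tested did. The units differ: the further rows were adjusted among all rows with a single symbol, and the background counts only the brightest row of each gene. Some of the 9 are rows of the same gene. In 0 cases were a further row and its brighter row both called, in opposite directions. That count leaves out rows such as the second of Uqcr11, called lower where the brighter row rose slightly without passing the test.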
